A study of Mus musculus with 36 samples.

Results

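The 46 genes described here act in mitosis and in the G2 phase before it: the B-type and A-type cyclins and Cdk1, the mitotic kinases, the spindle checkpoint, kinetochore and chromosomal passenger proteins, mitotic kinesins, cytokinesis factors and the condensin subunits. They were chosen by symbol and role with earlier results of these data known, although the rule itself names no measured value. All 46 were among the 12652 genes of the expression table, and all 46 were among the 11361 genes tested. Their lowest value in any of the 36 libraries was 2.56 RPKM (reads per kilobase of gene, relative to the size of the library), in Cenpf. Their RNAs are made mainly in the G2 and M phases, so in a bulk sample their summed level is commonly read as a measure of dividing cells. Many are controlled together through the DREAM complex, B-Myb and FOXM1, which act at promoters holding CCAAT boxes and the cell cycle genes homology region (CHR). In the intestine the dividing cells are the crypt stem and progenitor cells, and mature enterocytes have left the cycle. In bulk RNA, fewer cells of a type and less RNA per cell cannot be told apart.

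Intestinal organoids, epithelial cultures that grow as hollow bodies from crypt cells, came from 2 male wild-type C57BL/6 littermates aged 8 weeks. All cultures were started as single cells and grown for 3 days with epidermal growth factor, Noggin and R-spondin (ENR), Wnt3a-conditioned medium, the ROCK inhibitor Y-27632 and the GSK3 inhibitor CHIR99021. The 0h_none group was taken then. The other 8 groups were changed to ENR alone and received 1 of 4 additions for 6 h or 24 h: the vehicle DMSO, 10 µM of atRA (all-trans retinoic acid), 10 µM of 9cisRA (9-cis retinoic acid), or 5 µM of RXRi, an antagonist of the retinoid X receptor. RNA was purified in duplicate per mouse and condition from pooled wells, giving 4 libraries a condition and n = 2 mice. The p-values thus measure how far the differences between conditions varied between the cultures of 2 littermates. A constant difference between the 2 mice is taken out by the model. The 0 h cultures had no DMSO, so vehicle, medium change and time cannot be told apart in comparisons with 0 h.

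Promoter sequence itself was not used to choose these genes. Their roles were, and many genes of these roles are known for CCAAT and CHR promoters. The shares below therefore describe the list and test nothing about these data. Of the 46 genes, 37 had an entry in the RefSeq promoter table (GRCm38.p6, the mm10 assembly), with windows of 300 bases. The CHR letters TTTGAA or TTCGAA, on either strand, were found for 30 of the 37 (81.1%), beside 16.5% of the 9088 tested genes with an entry and 21.7% of all 27025 genes of the table. CCAAT, on either strand, was found for 29 (78.4%), beside 43.7% of the tested genes with an entry. Both stood in the windows of 27 genes (73%), beside 7.09%, and at least 2 CCAAT boxes in those of 20 (54.1%), beside 17.5%. The E2F letters TTTCGCGC or TTTGGCGC were found for 2 genes (5.41%), beside 1.91%. A gene with several windows counted once if any window held the letters, and a match is a description of letters, not a binding site.

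The 5 stretches below, of 140 bases from 110 before to 30 after an annotated start, are shown because their genes mark the ends of the responses described here (Nuf2, Ect2, Kif23, Ccnb2) or the kinase at the centre of the program (Cdk1). All 5 genes lie on the minus strand, and CCAAT and CHR letters are in capitals, with ATTGG standing for CCAAT on the other strand. The stretches are those of Cdk1 at chr10:69352883-69353022, Ccnb2 at chr9:70421525-70421664, Kif23 at chr9:61946770-61946909, Ect2 at chr3:27153849-27153988 and Nuf2 at chr1:169531435-169531574.
Cdk1: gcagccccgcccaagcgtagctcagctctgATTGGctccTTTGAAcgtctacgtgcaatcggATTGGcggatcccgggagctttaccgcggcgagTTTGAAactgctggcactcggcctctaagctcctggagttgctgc
Ccnb2: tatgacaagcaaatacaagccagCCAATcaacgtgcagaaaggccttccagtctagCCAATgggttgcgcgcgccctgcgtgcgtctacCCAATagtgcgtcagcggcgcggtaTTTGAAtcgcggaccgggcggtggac
Kif23: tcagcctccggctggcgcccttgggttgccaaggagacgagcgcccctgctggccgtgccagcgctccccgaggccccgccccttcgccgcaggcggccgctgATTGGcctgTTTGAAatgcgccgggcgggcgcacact
Ect2: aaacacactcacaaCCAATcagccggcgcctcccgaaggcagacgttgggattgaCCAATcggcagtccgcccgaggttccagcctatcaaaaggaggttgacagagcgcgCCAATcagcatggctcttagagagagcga
Nuf2: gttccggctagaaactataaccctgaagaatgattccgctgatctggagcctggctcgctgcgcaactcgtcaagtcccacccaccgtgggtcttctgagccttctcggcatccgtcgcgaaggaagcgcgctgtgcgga
The Cdk1 stretch holds 2 CHR and 2 CCAAT matches, that of Ccnb2 holds 1 CHR and 3 CCAAT, and that of Kif23 holds 1 of each, a few bases apart. The Ect2 stretch holds 3 CCAAT and no CHR match, although CHR letters stand outside it in the 300-base window. The table gives 2 starts for Ect2, 1 of which is shown, and counted from the other start a CHR match begins 15 bases after it. The Nuf2 window holds neither.

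Read sums recovered from the table were 19.6 to 30.7 M per library. The epithelial markers Epcam, Cdh1, Krt8, Krt18, Krt19, Vil1, Cdx1 and Cdx2 summed to 11339.9 to 11607 RPKM at 0 h, 10932 to 12508 with DMSO at 24 h and 21599 to 22629 with RXRi at 24 h. Of the fibroblast markers 1 of 8 was listed (Vim, at most 1.75 RPKM), and of the immune markers 3 of 6, which summed to at most 10.2 RPKM. Each log2 fold change, with its SE after the ± sign, refers to log2(RPKM + 0.5) and comes from 1 limma model over all conditions with mouse as a block. Calls are two-sided at a Benjamini-Hochberg adjusted p below 0.05 over all tested genes.

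Averaged over the 46 genes, the level stayed near that of 0 h at 6 h in all 4 groups and was lower in all 4 groups at 24 h. The mean log2 level relative to 0 h was 0.089 with DMSO, 0.082 with atRA, 0.082 with 9cisRA and 0.079 with RXRi at 6 h, with libraries between -0.014 and 0.17. At 24 h it was -0.45 with DMSO (libraries -0.53 to -0.37). It was -0.98 with atRA (-1.02 to -0.95), -1.08 with 9cisRA (-1.25 to -0.96) and -1.01 with RXRi (-1.06 to -0.92). The libraries of the 3 compounds overlapped each other at 24 h and all 12 lay below the 4 DMSO libraries. The lowest of all was the first duplicate of mouse 2 with 9cisRA.

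**Figure D1:**
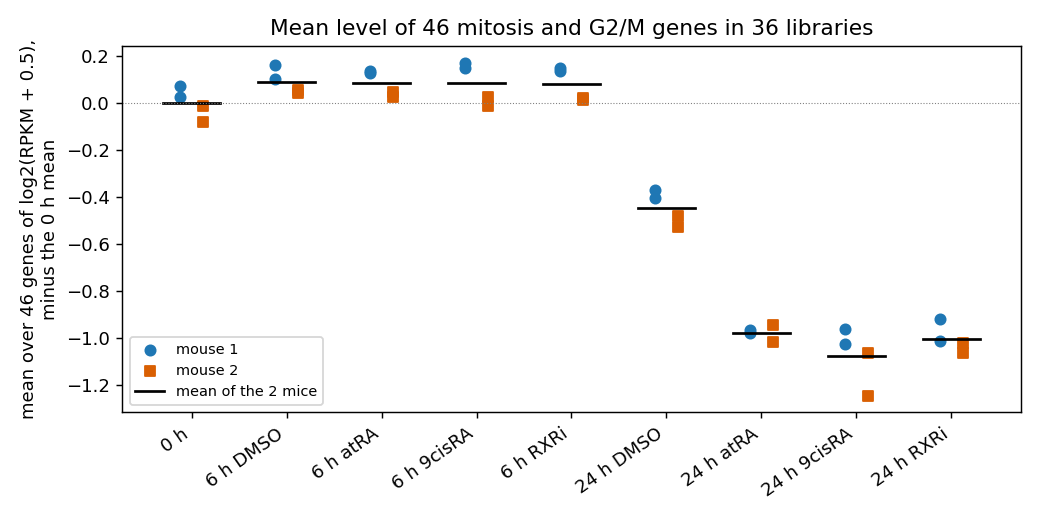
Mean of log2(RPKM + 0.5) over the 46 genes minus its 0 h mean (vertical axis) for each library, by condition (horizontal axis), with mice in different colours and symbols and a line at the mean of the 2 mice. All 12 libraries of the compounds at 24 h lie between -1.25 and -0.92, below the 24 h DMSO libraries at -0.53 to -0.37.

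Levels differed widely among the genes. At 0 h the mean was lowest for Cenpf, a large kinetochore protein, at 6.79 ± 0.317 RPKM (SD, n = 2 mice), and highest for Ube2c, the E2 ubiquitin-conjugating enzyme of the anaphase-promoting complex, at 174 ± 23.6. Top2a, the topoisomerase that untangles sister chromatids, came next at 85.4 ± 4.14, with Ccna2, cyclin A2, at 85.4 ± 7.45, and this pair did not differ beyond the spread. Cenpf was lowest and Ube2c highest in the 24 h DMSO group as well, at 4.74 ± 0.173 and 119 ± 13.4 RPKM. Over the 18 mouse-and-condition values, each gene's correlation with the mean of the other 45 ran from 0.996 for Racgap1 to 0.907 for Kif23, with Ect2 next at 0.941. These points share libraries and the large step between 6 h and 24 h.

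**Figure D2:**
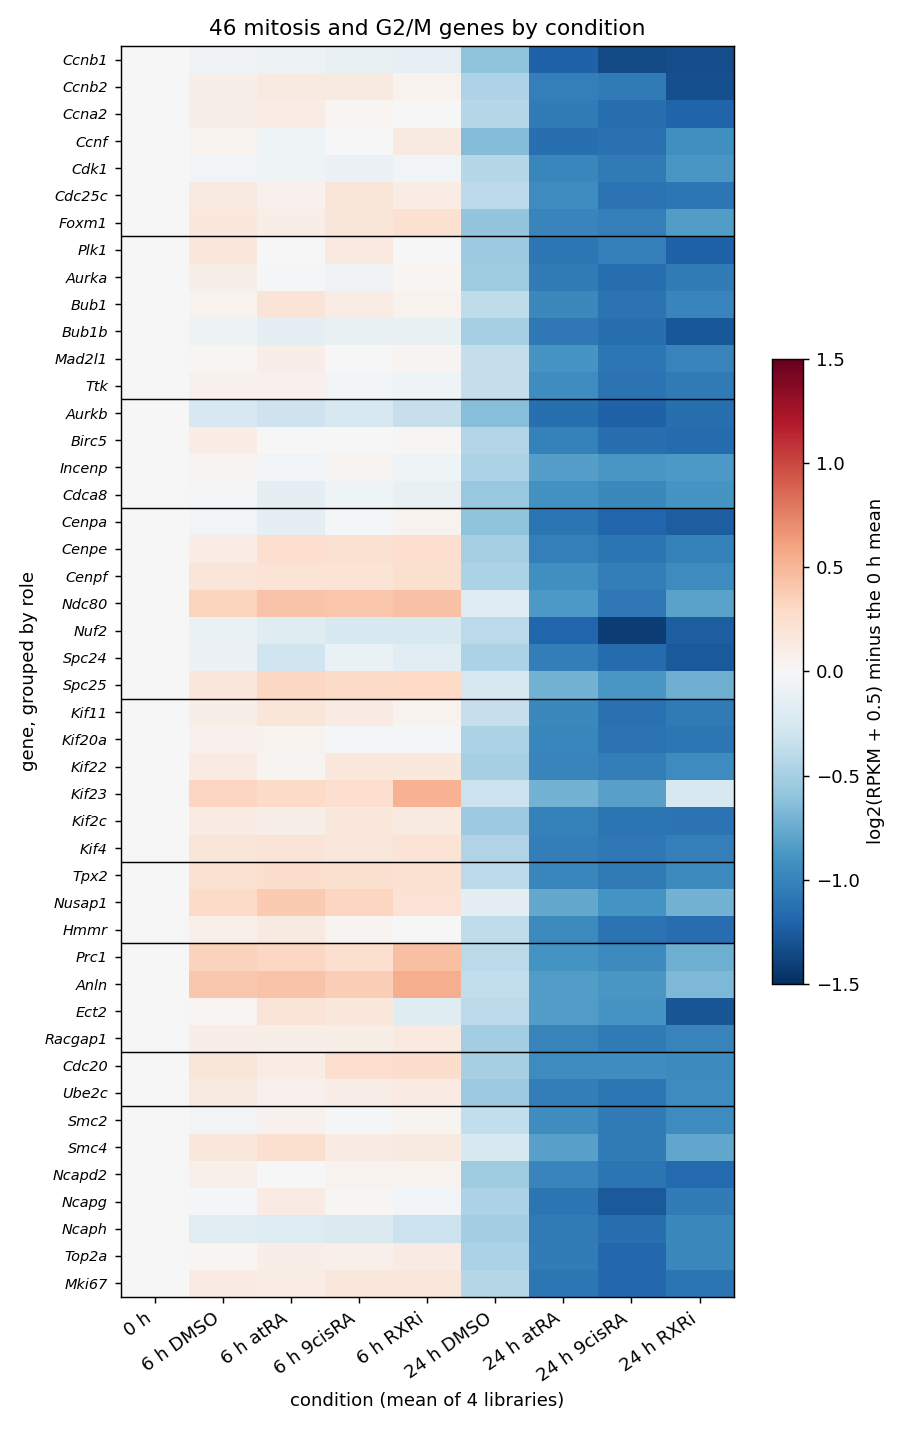
Mean log2(RPKM + 0.5) minus the 0 h mean (colour, red above and blue below) for the 46 genes (rows, grouped by role and separated by lines) in the 9 conditions (columns, means of 4 libraries). The columns of the 3 compounds at 24 h are the darkest blue, and Kif23 with RXRi at 24 h is pale among them.

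Vehicle cultures were compared first. From 0 h to 6 h with DMSO, 12 of the 46 genes rose and 1 fell, beside 22.3% of all tested genes higher and 23.4% lower. The split was 8 higher and 2 lower when libraries were scaled to the same read sum. The share that rose was thus close to that of all genes, and the median over the 46 was 0.085, beside -0.015 over all tested genes. The largest rise was that of Anln, the anillin scaffold of the contractile ring. Anln read 22.3, 22.6, 22.5 and 20.1 RPKM at 0 h and 29.6, 28.9, 28.2 and 29.4 at 6 h, groups that did not overlap, a log2 fold change of 0.40 ± 0.066 (limma adjusted p = 0.000303). Prc1, which bundles the microtubules of the central spindle, rose from 19.1, 18.6, 18.2 and 17.1 to 23.6, 25.2, 22.1 and 22.8 RPKM (0.35 ± 0.056, adjusted p = 0.000264, limma). Ndc80, a kinetochore subunit that binds microtubules, rose by 0.33 ± 0.11 (adjusted p = 0.0244) and Kif23, the kinesin of centralspindlin, by 0.32 ± 0.042 (adjusted p = 5.09e-05, limma). The other genes that rose were Nusap1, Tpx2, Cenpf, Cdc20, Kif4, Spc25, Foxm1 and Kif2c. For 9 genes all 4 libraries at 6 h lay above all 4 at 0 h, beside 19.6% of all tested genes. Aurkb, the kinase of the chromosomal passenger complex, fell by 0.24 ± 0.074 (adjusted p = 0.0184, limma). Its libraries read 47.6, 45.5, 42.6 and 41.8 RPKM at 0 h and 42.7, 41.1, 33.5 and 33.5 at 6 h, so the highest at 6 h lay within the 0 h range. Without the mouse block 6 genes passed, all higher, and without mouse 2 there were 7.

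From 0 h to 24 h with DMSO, 44 of the 46 genes fell and none rose, beside 30.3% of all tested genes lower and 29.2% higher. The median was -0.47. The lowest were Ccnf, which encodes cyclin F, at -0.65 ± 0.069, Aurkb at -0.64 ± 0.074 and Ccnb1, cyclin B1, at -0.61 ± 0.057. Ndc80 (-0.19 ± 0.11, adjusted p = 0.143, limma) and Nusap1, a spindle microtubule protein (-0.15 ± 0.091, adjusted p = 0.181), did not pass the threshold. Both had risen at 6 h. With libraries scaled to the same read sum all 46 genes passed as lower, beside 40.1% of all tested genes. Between 6 h and 24 h all 46 genes fell, beside 24.5% of all tested genes, and for all 46 the 4 libraries at 24 h lay below the 4 at 6 h, beside 21.5%. The largest of these falls were those of Anln (-0.77 ± 0.066), Foxm1, the transcription factor of the G2/M program (-0.76 ± 0.057), and Prc1 (-0.75 ± 0.056), and the smallest was that of Nuf2 (-0.30 ± 0.090), the partner of Ndc80. The call of Nuf2 was lost without mouse 2 (-0.24).

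The genes of DNA replication took another course over the same hours. Of 40 such genes (Mcm helicase, origin recognition, polymerase and nucleotide synthesis genes), none rose and 36 fell from 0 h to 6 h, beside 23.4% of all tested genes lower, with a median of -0.34. From 6 h to 24 h 22 fell, beside 24.5%, with a median of -0.19. The smallest p-values at 6 h were those of Fen1, the flap endonuclease (-0.51 ± 0.058), and Chaf1b, of the chromatin assembly factor (-0.51 ± 0.059). Of the 46 mitosis genes 1 had thus fallen by 6 h and all 46 fell between 6 h and 24 h, whereas most replication genes had fallen by 6 h. The difference between the lists was not tested. Not all mitosis genes took the course of the 46. Outside them, the further mitosis genes with the smallest p-values at 6 h were Trip13 (-0.56 ± 0.055), Mybl2, which encodes B-Myb (-0.65 ± 0.068), and Ncapg2 (-0.31 ± 0.065), all lower. Picked by their p-values, these genes do not show the course of the rest of that list. Over the first 6 h the cell cycle inhibitors moved as well, with 8 of 14 higher, beside 22.3% of all tested genes, and 1 lower, among them Ccng2 at 1.27 ± 0.077 and Btg1 at 0.55 ± 0.053. Of the G1 cyclins and their kinases 1 of 12 was higher and 8 were lower, beside the same 22.3% and 23.4%, with Ccnd2 at -0.60 ± 0.039.

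**Figure D3:**
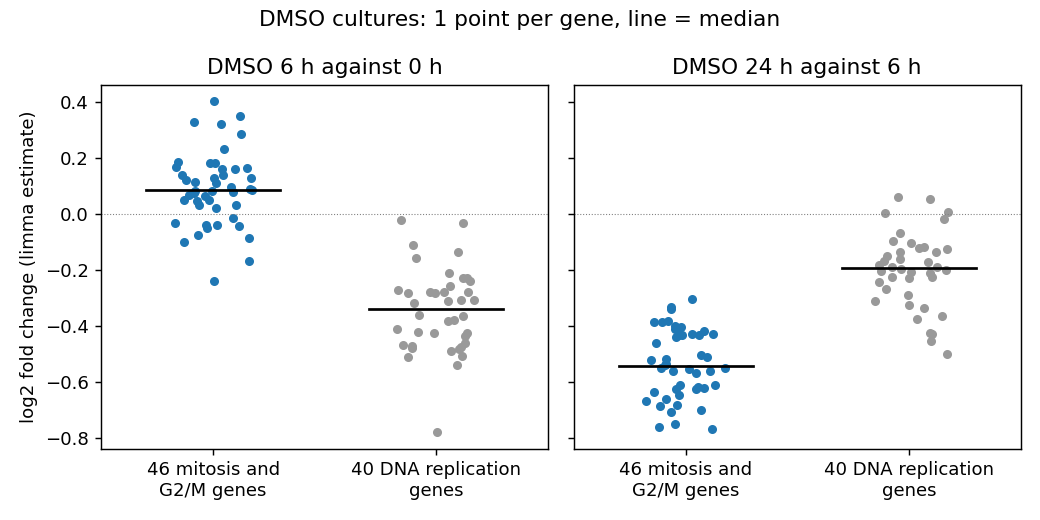
Log2 fold changes (vertical axis) of the 46 mitosis and G2/M genes and of 40 DNA replication genes in DMSO cultures, 1 point per gene with the median as a line, for 6 h against 0 h (left) and 24 h against 6 h (right). The median of the mitosis genes is 0.085 on the left and -0.54 on the right, and that of the replication genes -0.34 and -0.19.

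Each compound was then set against DMSO at the same time. The 3 comparisons share the DMSO libraries, so their values are given side by side and no likeness between them is read as a result. At 24 h with atRA all 46 genes were lower than with DMSO, beside 18.6% of all tested genes. The median was -0.54, a fold of 0.689, and the range -0.79 to -0.35. With 9cisRA all 46 were lower as well, beside 23.5% of all tested genes, with a median of -0.63, a fold of 0.648, and a range of -1.01 to -0.40. In both comparisons all 46 genes were lower in both mice. For all 46 the 4 treated libraries lay below the 4 DMSO libraries, beside 19.8% of all tested genes with atRA and 21.1% with 9cisRA. The median over all tested genes was -0.0039 with atRA and -0.0017 with 9cisRA. Scaling to the same read sum moved the latter to -0.12, and the median of the 46 genes then lay 0.63 below it.

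Among the genes of mitotic entry, Ccnb1 read 23.1, 22.8, 19.9 and 19.8 RPKM with DMSO, 13.6, 14.1, 13.9 and 13.7 with atRA and 13.2, 12.4, 11.7 and 13.3 with 9cisRA at 24 h. It fell by 34.3% with atRA (-0.61 ± 0.057, limma adjusted p = 6.03e-06) and by 39.9% with 9cisRA (-0.74 ± 0.057, adjusted p = 8.34e-07), and the groups did not overlap. Cdk1, the kinase that cyclin B activates, read 55.7, 51.7, 50.7 and 47.2 RPKM with DMSO, 33.3, 33.9, 36.5 and 35.4 with atRA and 36.4, 33.4, 29.2 and 32.9 with 9cisRA. Its log2 fold changes were -0.55 ± 0.059 and -0.63 ± 0.059. Foxm1 fell less, by 0.39 ± 0.057 and 0.43 ± 0.057, from 12.4–14.5 RPKM with DMSO to 8.87–10.9 with atRA and 9.15–10.5 with 9cisRA. Ccnf fell by 0.48 and 0.47, from 13.3–14.5 RPKM to 9.22–10.01 and 9.36–10.4. The median of the 7 entry genes (these, Ccnb2, Ccna2 and Cdc25c) was -0.55 with atRA and -0.63 with 9cisRA.

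The mitotic kinases and checkpoint genes fell to a like degree. Plk1, the polo-like kinase, read 42.2, 40.8, 37.6 and 33.6 RPKM with DMSO, 25.9, 27.9, 26.7 and 25.01 with atRA and 28.95, 28.1, 27.8 and 25.3 with 9cisRA, changes of -0.53 ± 0.071 and -0.48 ± 0.071. Aurka, the centrosomal aurora kinase, fell from 41.6–47.2 RPKM to 28.03–31.7 and 26.2–29.1 (-0.52 ± 0.052 and -0.60 ± 0.052). Bub1b, which encodes the checkpoint protein BubR1, fell from 21.1–23.4 to 13.96–15.6 and 12.9–14.9 RPKM (-0.58 ± 0.052 and -0.64 ± 0.052). The median of the 6 genes, with Bub1, Mad2l1 and Ttk, was -0.55 with atRA and -0.68 with 9cisRA. The chromosomal passenger complex (Aurkb, Birc5, Incenp, Cdca8) had the smallest median of the 9 roles with atRA, -0.42, and one of the smallest with 9cisRA, -0.49. Within it Birc5, survivin, fell by 0.58 and 0.69, from 24.1–28.2 RPKM to 16.9–18 and 15.6–16.9, and Cdca8, borealin, by 0.35 and 0.40, with limma adjusted p-values of 0.00233 and 0.000549.

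The largest falls were those of the kinetochore genes Nuf2 and Ndc80. Nuf2 read 14.9, 13.8, 12.9 and 12.7 RPKM with DMSO, 7.60, 7.52, 8.06 and 7.38 with atRA and 8.18, 7.17, 4.94 and 6.16 with 9cisRA, falls of 42.2% (-0.79 ± 0.090, limma adjusted p = 2.66e-05) and 50.2% (-1.01 ± 0.090, adjusted p = 2.43e-06). Ndc80 read 13.2, 12.9, 11.5 and 10.7 with DMSO, 7.49, 7.46, 7.63 and 7.03 with atRA and 7.24, 7.13, 5.16 and 6.01 with 9cisRA (-0.67 ± 0.11 and -0.88 ± 0.11). In both genes the libraries of mouse 2 with 9cisRA were the lowest of the 12. Cenpf fell by 0.45 and 0.57, from 4.43–5.04 RPKM to 2.92–3.62 and 2.56–3.38. Spc24, another subunit of the Ndc80 complex, fell by 0.56 and 0.69. The other genes of this role fell less than Nuf2 and Ndc80 with atRA, with Cenpe at -0.53 ± 0.077, Cenpa at -0.49 ± 0.051 and Spc25 at -0.47 ± 0.064.

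Among the motors and spindle genes, Kif20a, a kinesin of the late mitotic midzone, fell from 22.8–25.1 RPKM to 15.6–18.7 with atRA and 14.6–16.7 with 9cisRA (-0.50 ± 0.061 and -0.63 ± 0.061). Tpx2, the activator of Aurora A on the spindle, fell from 23.98–27.97 to 16.7–17.2 and 13.9–17.9 RPKM (-0.59 ± 0.052 and -0.67 ± 0.052). Prc1 fell from 13.1–14.2 to 9.21–9.99 and 8.46–9.74 RPKM (-0.49 ± 0.056 and -0.56 ± 0.056). Cdc20, an activator of the anaphase-promoting complex, fell by 0.45 and 0.43, from 49.9–62.4 RPKM to 38.3–43.4 and 38.8–43.7. Ube2c, the E2 enzyme of that complex, fell by 0.49 and 0.54. Ube2c, the most abundant of the genes, read 102–128 RPKM with DMSO, 81.2–87.7 with atRA and 77.99–87.8 with 9cisRA.

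Chromosome structure genes included Mki67, the surface protein of mitotic chromosomes used as a proliferation marker. Mki67 read 39.7, 41.5, 37.3 and 39.6 RPKM with DMSO, 27, 23.9, 26.8 and 22.6 with atRA and 26.6, 25.5, 19.8 and 22.2 with 9cisRA. Top2a read 61.4, 65.1, 58.4 and 60.7 with DMSO, 42.7, 41.4, 42.04 and 38.2 with atRA and 43.8, 39.7, 29.5 and 37.9 with 9cisRA, changes of -0.57 ± 0.057 and -0.71 ± 0.057. All 8 retinoid libraries of Top2a lay below the 4 DMSO libraries. The condensin subunits Smc2 (from 10.4–11.7 to 6.78–7.71 and 5.08–7.78 RPKM) and Ncapd2 (from 24.3–25.5 to 17.02–18.9 and 15.3–17.6) fell with both. With 9cisRA the condensin subunits Smc4 (-0.82 ± 0.084) and Ncapg (-0.79 ± 0.062) were the lowest after Nuf2 and Ndc80.

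With RXRi at 24 h, 45 of the 46 genes fell and none rose, beside 30.4% of all tested genes lower, with a median of -0.57 and a fold of 0.674. For 44 genes the 4 RXRi libraries lay below the 4 DMSO libraries, beside 29.8% of all tested genes. The range was wider than with the retinoids, from -0.89 ± 0.067 for Ect2 to 0.078 ± 0.042 for Kif23. Ect2, the exchange factor that activates RhoA for cytokinesis, read 24.2, 23.5, 26 and 25.7 RPKM with DMSO and 14.9, 12.9, 12.3 and 12.7 with RXRi, a fall of 45.9% (limma adjusted p = 9.13e-08). With atRA it read 18.8, 18.1, 18.4 and 17.6 and with 9cisRA 18.8, 18.7, 14.9 and 18.3, between DMSO and most RXRi libraries. Ccnb2, cyclin B2, read 49.3, 48.9, 48.2 and 46.2 with DMSO and 27.2, 25.8, 25.3 and 27.7 with RXRi (-0.85 ± 0.070, adjusted p = 1.99e-07, limma). Nuf2 was the next lowest (-0.83 ± 0.090), with 8.27, 7.31, 6.82 and 7.37 RPKM.

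Kif23 was the exception. It read 34.99, 33.9, 31.2 and 30.5 RPKM with DMSO, 36.97, 35.4, 32.4 and 33.1 with RXRi, 25.3, 26.3, 24.6 and 23.4 with atRA and 25.1, 23.8, 20.99 and 22.5 with 9cisRA. The DMSO and RXRi libraries overlapped (0.078 ± 0.042, interval -0.013 to 0.17, limma adjusted p = 0.124), and all 8 retinoid libraries lay below both. When values were quantile-normalized, the Kif23 change with RXRi at 24 h passed as higher. Anln also overlapped between DMSO (15.9, 17.01, 17.6 and 16.96) and RXRi (15.96, 13.8, 11.6 and 12.99) and fell by 0.31 ± 0.066 (adjusted p = 0.00111, limma). Its fall was 0.14 in mouse 1 and 0.48 in mouse 2, and the call was lost without mouse 2. Foxm1 (-0.24 ± 0.057) and Ccnf (-0.27 ± 0.069) had the smallest falls of the 45.

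Panel genes that fell with RXRi included the following. Ccnb1 read 12.02–13.5 RPKM, Cdk1 36.1–38.7, Plk1 21.96–25.5 and Bub1b 12.3–13.3. Mki67 read 23.5–26.8, Top2a 41.7–46.8, Birc5 15.1–16.3 and Ndc80 6.66–9.30. These ranges lie below the DMSO libraries of the same gene given above. Bub1b (-0.78 ± 0.052), Birc5 (-0.72 ± 0.050) and Plk1 (-0.67 ± 0.071) were among the larger falls, and Prc1 (-0.33 ± 0.056), Cdca8 (-0.32 ± 0.072) and Ube2c (-0.40 ± 0.086) among the smaller.

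**Figure D4:**
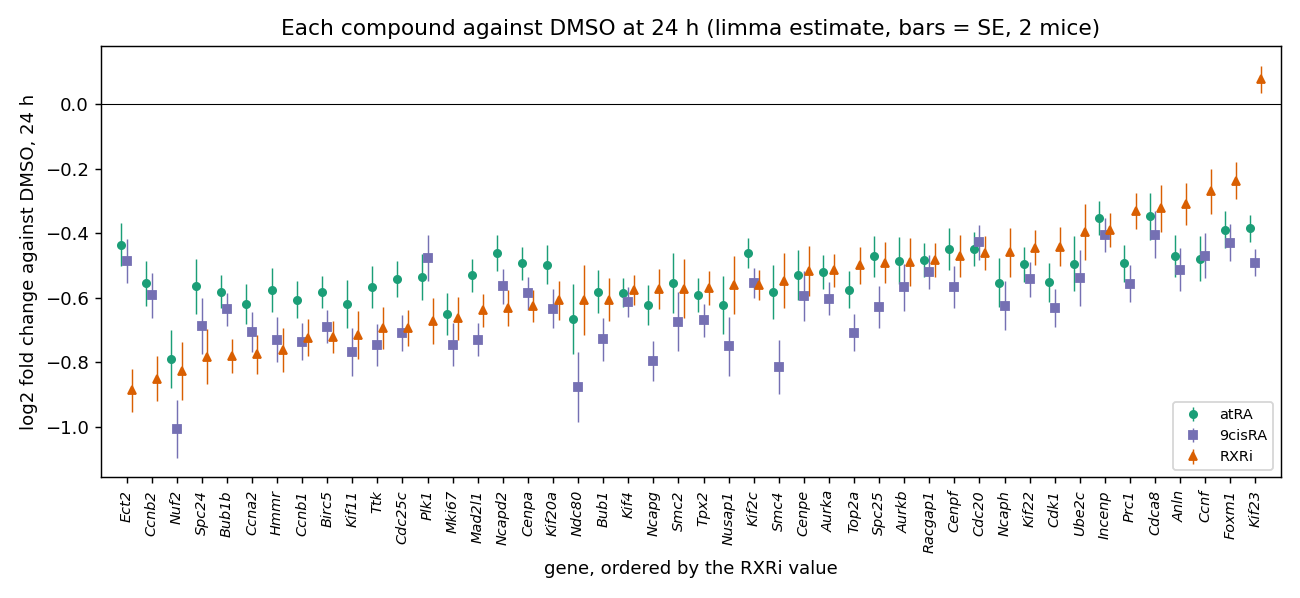
Log2 fold change against DMSO at 24 h (vertical axis) for the 46 genes, ordered by their RXRi value (horizontal axis), with circles for atRA, squares for 9cisRA and triangles for RXRi, and bars of 1 SE from the fit over 2 mice. The retinoid values lie between -1.01 and -0.35, and the RXRi values run from -0.89 for Ect2 to 0.078 for Kif23.

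At 6 h few of these genes had changed. With atRA 0 of 46 passed, beside 4.66% of all tested genes in either direction, and with 9cisRA 0 of 46, beside 8.04% (limma). At an unadjusted p below 0.05, 7 genes stood with atRA and 1 with 9cisRA, and the medians were -0.018 and -0.0095. With RXRi 1 gene was higher and 1 lower, beside 25.2% of all tested genes in either direction. Scaling to the same read sum left 1 higher and 0 lower, and quantile normalization gave 2 higher and 0 lower. Kif23 was the higher, with 51.4, 54.1, 48.8 and 50.8 RPKM with DMSO and 63.7, 61.3, 56.6 and 54.6 with RXRi, groups that did not overlap (0.20 ± 0.042, limma adjusted p = 0.00324). Ect2 was the lower, with 31.6, 33.7, 34.2 and 35 RPKM with DMSO and 28.6, 30.003, 29.4 and 27.4 with RXRi, also without overlap (-0.22 ± 0.067, adjusted p = 0.031). Both are partners in cytokinesis: centralspindlin, which holds Kif23 and Racgap1, recruits Ect2 to the cell equator. Racgap1 had a log2 fold change of 0.044 ± 0.053 at 6 h (adjusted p = 0.601, limma), which did not pass, and fell by 0.48 ± 0.053 at 24 h. Without the mouse block 0 of the 46 passed at 6 h with RXRi. The call of Kif23 was lost without mouse 1 (0.16) and that of Ect2 without mouse 2 (-0.15).

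**Figure D5:**
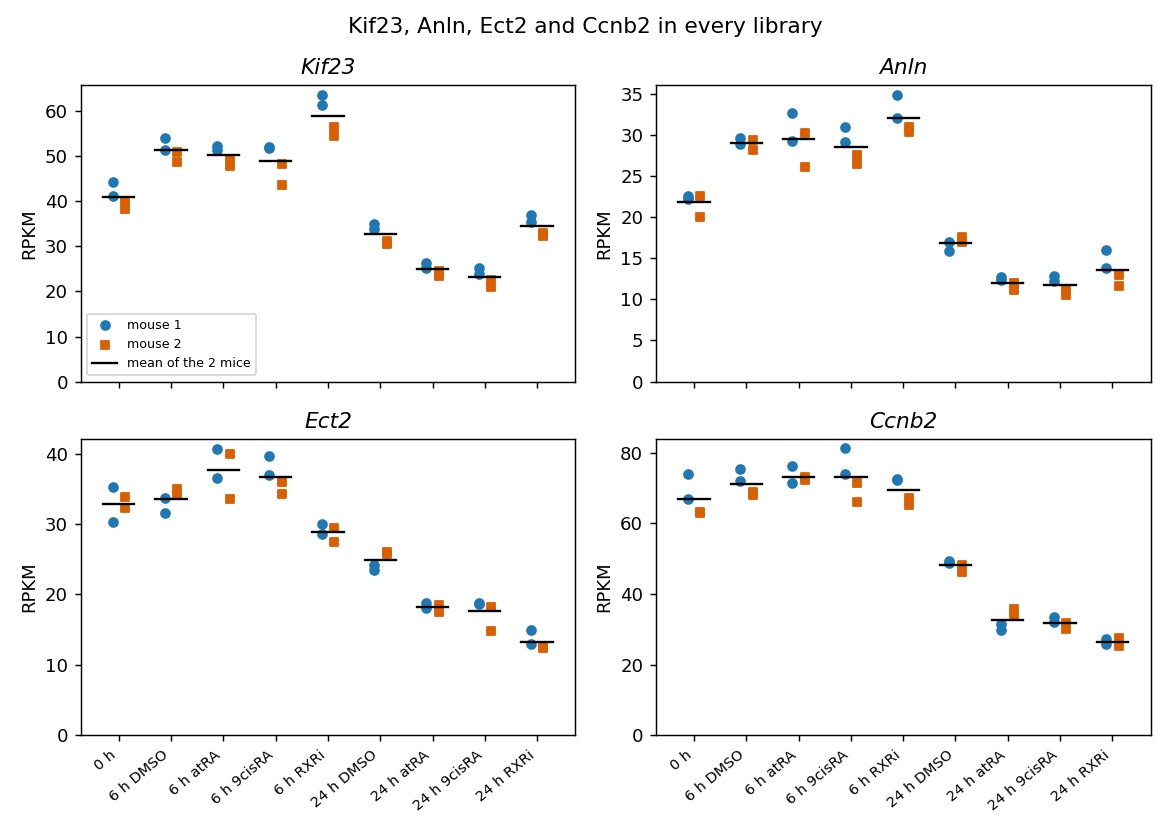
RPKM (vertical axis) of Kif23, Anln, Ect2 and Ccnb2 in every library by condition (horizontal axis), with mice in different colours and symbols and a line at the mean of the 2 mice. Kif23 with RXRi lies above DMSO at 6 h and overlaps it at 24 h, whereas Ect2 with RXRi lies below DMSO at both times.

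The change of each effect between the times was tested itself. The atRA effect was lower at 24 h than at 6 h for 44 of the 46 genes, beside 7.11% of all tested genes, the 9cisRA effect for 46, beside 7.9%, and the RXRi effect for 44, beside 16.5%. The genes that did not pass were Cdca8 and Spc24 with atRA and Cdca8 and Kif23 with RXRi. The largest differences were those of Ncapg with atRA (-0.78 ± 0.087), Ndc80 with 9cisRA (-0.97 ± 0.15) and Ccnb2 with RXRi (-0.82 ± 0.099). With libraries scaled to the same read sum, the genes that had not passed did so as well. The atRA effect was then lower for 46 genes, beside 15% of all tested genes, and the RXRi effect for 46, beside 21.1%.

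The retinoic acids are isomers that differ in the geometry of a double bond of the side chain, and they were given at the same dose. At 6 h 0 of the 46 genes differed between 9cisRA and atRA, beside 1.72% of all tested genes, and 3 had an unadjusted p below 0.05 (limma). At 24 h 0 differed, beside 0.467%, and 13 had an unadjusted p below 0.05. The median difference, 9cisRA minus atRA, was -0.093 at 24 h, with 43 of 46 values negative. It was -0.013 in mouse 1 and -0.17 in mouse 2, the mouse whose first 9cisRA duplicate was the lowest library. The gene with the lowest value was Smc4 at -0.23 ± 0.084 (interval -0.42 to -0.053, adjusted p = 0.285), and the highest was Plk1 at 0.059 ± 0.071 (interval -0.10 to 0.21). The intervals of the 46 genes reached from -0.44 to 0.21, so differences of that size are not shown to be absent.

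9cisRA and RXRi were given at different doses, 10 µM and 5 µM, and their values are set side by side with that limit. At 6 h 1 gene was higher and 2 were lower with 9cisRA than with RXRi, beside 28.2% of all tested genes in either direction. They were Ect2 (0.34 ± 0.067), Kif23 (-0.27 ± 0.042) and Prc1 (-0.20 ± 0.056). At 24 h 4 genes were higher, beside 25.3%, and 10 lower, beside 31%, both shares below those of all tested genes. The split was 2 and 25 with libraries scaled to the same read sum, beside 43.8% of all tested genes lower, so that the share of lower genes then lay above that of all genes. It was 2 and 18 after quantile normalization, beside 43.2%. The median over all tested genes was -0.13 under each of these scalings, beside -0.055, and that of the 46 was -0.17 and -0.13, beside -0.081. The 4 higher were Ect2 (0.40 ± 0.067, limma adjusted p = 0.000195), Ccnb2 (0.26 ± 0.070), Plk1 (0.20 ± 0.071) and Bub1b (0.14 ± 0.052). The lowest was Kif23 (-0.57 ± 0.042, adjusted p = 6.36e-08), and the other 9 were Ndc80, Smc4, Prc1, Ncapg, Top2a, Anln, Ccnf, Foxm1 and Cdk1, between -0.27 ± 0.11 and -0.19 ± 0.059. For 5 of the 46 genes all 4 libraries with 9cisRA lay below all 4 with RXRi, beside 30.2% of all tested genes. For 1, Ccnb2, they lay above, beside 24.2%. Of the genes called, Ect2, Plk1, Bub1b, Ndc80, Smc4, Ncapg, Top2a, Anln and Cdk1 had libraries that overlapped. Without the mouse block 7 of the 46 passed, 2 higher and 5 lower, and without mouse 2 there were 9. The call of Smc4 was lost without the first 9cisRA duplicate of mouse 2 (-0.14). That of Anln was lost without the second RXRi duplicate of mouse 2 (-0.16) and without the mouse block. Ndc80 stood near the threshold (limma adjusted p = 0.0486).

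Further mitosis genes outside the 46 were counted in the same comparisons. Of all tested genes at 24 h, 19.4% were higher and 18.6% lower with atRA, 24.4% and 23.5% with 9cisRA, and 31.1% and 30.4% with RXRi, and the counts of each list stand beside these shares. Of 75 tested, 66 were lower and 1 higher with atRA at 24 h, 66 and 1 with 9cisRA and 61 and 1 with RXRi, with medians of -0.46, -0.54 and -0.44. The smallest p-values with atRA were those of Ckap2, a spindle microtubule protein (-0.81 ± 0.059), the centrosomal kinase Nek2 (-0.55 ± 0.042) and Sgo1, the protector of centromeric cohesion (-0.67 ± 0.057). Cdc20 and Ube2c, which are among the 46, act with the anaphase-promoting complex. Of its 15 core subunits, 1 was higher and 4 were lower with atRA and 1 and 6 with 9cisRA. With RXRi 6 were higher, beside 31.1% of all tested genes, and 1 was lower. Anapc2 had the smallest p of the list (0.55 ± 0.058). Of the 11 genes of the DREAM and B-Myb list, 8 were lower with each retinoid, among them the atypical E2F gene E2f8 (-0.56 ± 0.078 with atRA), and with RXRi 5 were lower and 2 higher, beside 30.4% and 31.1%.

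The replication genes fell with each compound at 24 h. With atRA and with 9cisRA 39 of 40 were lower, with medians of -0.45 and -0.54. With RXRi 34 were lower, with a median of -0.31, beside -0.57 for the mitosis genes in the same comparison. Of the G1 cyclins and kinases, 1 of 12 was higher and 7 lower with atRA, 1 and 8 with 9cisRA, and 5 and 6 with RXRi, where Ccnd1, cyclin D1, rose by 0.34 ± 0.044. The cell cycle inhibitors were split in each comparison, with 4 of 14 higher and 6 lower with atRA, 4 and 5 with 9cisRA, and 4 and 3 with RXRi, where 31.1% of all tested genes were higher and 30.4% lower. These shares are near or below those of all genes with RXRi. Cdkn2b rose by 0.51 ± 0.099 with atRA and 0.65 ± 0.099 with 9cisRA, and Btg2 by 0.45 ± 0.049 with RXRi.

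The 10 genes outside the list whose pattern was most like the mean of the 46, by Pearson correlation over the 18 mouse-and-condition values, were Melk (0.997), Tacc3 (0.997), Knstrn (0.996), Nek2 (0.995), Cdca2 (0.994), Ska3, Tmpo, Spag5, Cep55 and Aspm (0.990).

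Markers of cell types moved in the same comparisons. The 15 enterocyte markers summed to 13638 to 21902 RPKM with DMSO at 24 h, 21494 to 31187 with atRA, 26315 to 35667 with 9cisRA and 3459 to 5608 with RXRi. Of the 14 tested, 4 were higher and 4 lower with atRA, 7 and 4 with 9cisRA, and 0 and 14 with RXRi. Of all tested genes 19.4% were higher and 18.6% lower with atRA, 24.4% and 23.5% with 9cisRA, and 31.1% and 30.4% with RXRi. In DMSO cultures 1 rose and 1 fell from 0 h to 6 h, beside 22.3% of all tested genes higher and 23.4% lower. All 14 rose from 0 h to 24 h, beside 29.2% of all tested genes higher. The 10 stem cell markers summed to 163 to 176 RPKM at 0 h and 108 to 115 at 6 h with DMSO. Over these 6 h 5 of 8 tested were lower, beside 23.4% of all tested genes. At 24 h the 10 stem cell markers summed to 134 to 144 RPKM with DMSO, 86.3 to 98.3 with atRA, 75.8 to 92.4 with 9cisRA and 133 to 136 with RXRi. This sum mixes opposite changes. From 0 h to 24 h with DMSO the smallest p-values of the list were those of Axin2 (-0.86 ± 0.068), Cdca7 (-0.87 ± 0.081) and Olfm4 (2.79 ± 0.26). Of 8 tested, none was higher and 7 were lower with atRA, 0 and 6 with 9cisRA, and 2 and 4 with RXRi, where Olfm4 fell by 2.41 ± 0.26 and Slc12a2 rose by 0.64 ± 0.094. Of the 8 epithelial markers 5 were higher and 1 lower with atRA, 5 and 0 with 9cisRA, and 4 and 4 with RXRi. The Paneth cell markers summed to 117 to 204 RPKM at 0 h, 322 to 484 with DMSO at 24 h, 189 to 451 with atRA, 237 to 325 with 9cisRA and 84.5 to 263 with RXRi. All 9 tested rose in DMSO from 0 h to 24 h and 7 were lower with RXRi. The goblet cell markers summed to 172 to 227 RPKM at 0 h, 615 to 681 with DMSO at 24 h and 681 to 1056 with RXRi, with 9 of 9 higher in DMSO and 4 higher and 1 lower with RXRi. The enteroendocrine markers summed to 80.8 to 109 RPKM at 0 h and 42.6 to 49.7 with DMSO at 24 h. Of these markers 5 of 8 were lower, beside 30.3% of all tested genes. The tuft cell markers, of which 1 of 6 was tested (Avil), summed to 3.71 to 4.12 RPKM with DMSO at 24 h and 16.1 to 18.2 with RXRi. No listed marker was at 0 in all libraries. The part of cell composition in the fall of the mitosis genes was not tested.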

How the data were processed

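The authors deposited 1 table of RPKM values for 12652 genes in 36 libraries, from TruSeq mRNA libraries per the labels' protocols. Reads were handled with bcl2fastq 2.17 and STAR 2.5.2b on mm10, per the submitters' processing notes, and the counting tool, its gene models and its use of strand are not given in the sources used here. Reads of overlapping or antisense genes can therefore not be told apart. The RPKM values came out as whole multiples of 1 read for 100% of genes (tolerance 0.05), which gave 19.6 to 30.7 M reads per library. The 46 genes and all other lists were chosen with earlier results of these data known.

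Genes with at least 1 RPKM in at least 4 libraries were tested (11361). Duplicate libraries were averaged per mouse and condition as log2(RPKM + 0.5), and limma 3.58.1 (R 4.3.3) was fitted to the 18 values with a mean per condition, mouse as a block and a trend in the variance prior, giving 8 residual degrees of freedom and 16 comparisons. Adjusted p-values are Benjamini-Hochberg over all tested genes, and intervals are 95%. Mouse numbers in the labels name the culture, so they pair samples. The deviations of the same mouse in 2 conditions correlated with a median of 0.44 (0.037 to 0.66 over 36 pairs of conditions). Values by library or their ranges are given for a panel of 1 to 3 genes per role and for genes at the ends of a comparison, and other lists by the genes with the smallest p. Members were averaged over log2 values in the summary by library. Alternatives were other pseudocounts, filters, scalings, models and thresholds and leaving out each library or mouse, and limma's voom on the recovered reads was added after seeing the data. The model was also run on simulated data, but no outcome is given here and nothing is read from that run. Figures were drawn with matplotlib 3.10.9.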

Additional observations from a re-analysis of the deposited data

Results flagged for a closer look

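In 171 sets of 4 libraries (panel genes by condition), 4 held a library far from the others by Dixon's test at the 95% level. For 4 independent values chance alone marks about 1 set in 20. These sets hold duplicates of 2 mice, so that rate need not hold for them. Plk1 read 48.95 RPKM in the second duplicate of mouse 2 with atRA at 6 h, beside 57.89 to 59.14 in the other libraries. Aurka read 47.21 RPKM in the first duplicate of mouse 1 with DMSO at 24 h, beside 41.57 to 42.06. Cenpf read 8.738 RPKM in the first duplicate of mouse 2 with RXRi at 6 h, beside 7.83 to 7.854. Ncapd2 read 40.07 RPKM in the second duplicate of mouse 1 at 0 h, beside 35.13 to 35.95. The effect differed between 24 h and 6 h, by the test of the difference itself in limma, for 44 of the 46 genes with atRA, 46 with 9cisRA and 44 with RXRi.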

How the results depend on the processing

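The falls at 24 h kept their direction in every alternative run, with the median of the 46 genes between -0.63 and -0.46 for atRA, -0.75 and -0.57 for 9cisRA and -0.61 and -0.52 for RXRi. Of 8512 values of 37 named genes under the alternatives, 184 lost their call and 0 reversed, and the cause was not tested. Without the mouse as a replicate block, the genes called were 7 for 9cisRA against RXRi at 24 h (14 with it), 0 for RXRi at 6 h (2 with it) and 6 for DMSO at 6 h against 0 h (13 with it), and the block moved no other count by over 1.5 times. With the 36 libraries as separate samples they were 1 for 9cisRA against atRA at 24 h (0 otherwise), 1 for 9cisRA at 6 h (0), 5 for 9cisRA against RXRi at 6 h (3) and 4 for RXRi at 6 h (2). Adding the duplicate number to the replicate block gave 1 for 9cisRA at 6 h and 5 for RXRi at 6 h. At an adjusted p below 0.01 they were 6 for 9cisRA against RXRi at 24 h, 1 for RXRi at 6 h and 5 for DMSO at 6 h. Scaling to the same read sum gave 27 and 1 for the first and second of these, and fitting the compared groups alone gave 9 for 9cisRA against RXRi at 6 h. Leaving out a library or a mouse gave 9 to 17 genes for 9cisRA against RXRi at 24 h (lowest without mouse 2), 0 to 1 for 9cisRA against atRA at 24 h, 1 to 3 for RXRi at 6 h, 0 to 2 for atRA at 6 h and 7 to 14 for DMSO at 6 h (lowest without mouse 2). It gave 46 to 46 for either retinoid at 24 h, 44 to 45 for RXRi at 24 h and 31 to 46 for the 24 h minus 6 h effect of atRA (lowest without mouse 1). The precision rests on 2 mice, with 19.6 M reads or more per library, and what limits it was not tested.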
